A study of Mus musculus with 8 samples.

Results

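The replication-dependent histone genes were taken as the genes of the Hist1, Hist2, Hist3 and Hist4 clusters. A gene was counted when the authors' deposited table gave a probe set exactly 1 gene symbol that begins with Hist1h, Hist2h, Hist3h or Hist4h, and the brightest such probe set stood for the gene. This gave 58 genes of 29455 with a single-symbol probe set: 5 of linker histone H1, 15 of H2A, 16 of H2B, 11 of H3 and 11 of H4. The choice used gene names and the mean signal over all 8 arrays, not the difference between groups. Hist4h4 was the gene with more than 1 single-symbol probe set, and 10 further histone probe sets that name several genes were kept apart.

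The samples were oocyte RNA from female ICR mice aged 8 weeks on a diet free of phyto-oestrogens, measured on Affymetrix MoGene 2.1 ST arrays. The 4 control arrays came from animals without treatment, and the 4 BPS arrays from animals dosed with bisphenol S, abbreviated BPS, a chemical that replaces bisphenol A in many products. The daily dose was 0.1 ng per g of body weight, by oral gavage for 7 days. BPS was dissolved in glycerol with DMSO, and no vehicle is named for the controls, so vehicle and BPS cannot be told apart. The protocols speak of ovaries at collection and of oocytes at RNA extraction. They give 4 animals per group but do not say that each array holds 1 animal, so p-values measure the spread between these samples.

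Replication-dependent histone genes supply the bulk of chromatin protein when DNA is copied. Pairs of H2A, H2B, H3 and H4 form the nucleosome core, and H1 binds the linker DNA. Their mRNAs have no introns and in dividing cells end in a stem-loop held by the protein SLBP instead of a poly(A) tail. Oocytes are past their last DNA replication before fertilisation, yet they store histones and histone mRNAs for the embryo. Many of these genes have nearly identical coding sequences, so a probe set can also take signal from a paralog. How much it did was not tested.

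The labelled cell type was checked against marker genes. All 11 oocyte markers lay above the background level, and the mean over the 11 was between 9.45 and 9.57 log2 units on every array. Single markers had means from 5.32 for Figla to 10.96 for Zp3. The background level of 4.54 is the signal under which 95% of probe sets lay for Y-linked genes and for olfactory or vomeronasal receptors, and 29.4% of all probe sets lay above it. Of the granulosa and cumulus markers 2 of 12 lay above it, Inha and Nr5a2, and Amh, Fshr and Foxl2 did not. Their summed linear signal ran from 269 to 301 on control and from 285 to 372 on BPS arrays. Of 8 theca and stroma, 4 endothelial, 4 immune and 3 erythroid markers, Pecam1 alone lay above it.

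The Hist1 cluster on mouse chromosome 13 holds 47 of the 58 members, of which Hist1h2al is annotated as a pseudogene. On GRCm38.p6 the Hist1 members other than Hist1h2al span chr13:21715711-23934913. The 7 Hist2 members lie at chr3:96219885-96270192, the 3 Hist3 members at chr11:58948911-58955192, and Hist4h4 alone at chr6:136803993-136804431. Hist3h2bb-ps is the other pseudogene. Hist1h2af (now H2ac10) lies at chr13:23533875-23534378 on the plus strand and Hist1h2an (now H2ac22) at chr13:21786774-21787248 on the minus strand. Hist1h2bp (now H2bc22) has the long annotated span of chr13:21787483-21801561 on the plus strand.

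The promoters of these genes share short motifs. Promoter windows of 250 bases before the annotated gene start, from RefSeq on GRCm38.p6, existed for 51 members and were searched on both strands for 3 strings, and a base could belong to more than 1 match. The octamer ATTTGCAT, a binding site of Oct-1, was present in 7 of 14 H2A and 6 of 13 H2B windows and in none of the 5 H1, 9 H3 and 10 H4 windows. That is 25.5% of the members and 1.60% of all 32851 promoter windows. CCAAT, the site of the NF-Y factor, was present in 84.3% of the members and 33.8% of all windows, and 3 of 10 H4 windows held it. TATAAA was present in 52.9% of the members and 12.4% of all windows. Windows of neighbouring genes read from opposite strands can overlap, so 1 string can be counted for 2 members.

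The 4 windows below are shown for different reasons. Hist1h2af, Hist1h2bp and Hist2h2bb are among the members with a blocked call described below, and Hist1h2ba, the oocyte and testis variant TH2B, is shown for comparison as a window with all 3 strings and no call between groups. Capitals mark the 3 strings on either strand. The sequence of Hist1h2bp is the 234 bases between it and Hist1h2an, which is read from the other strand. The windows lie at chr13:23533625-23533874 (plus strand), chr13:21787249-21787482 (plus strand), chr3:96269450-96269699 (plus strand) and chr13:23934157-23934406 (minus strand), in this order.
Hist1h2af: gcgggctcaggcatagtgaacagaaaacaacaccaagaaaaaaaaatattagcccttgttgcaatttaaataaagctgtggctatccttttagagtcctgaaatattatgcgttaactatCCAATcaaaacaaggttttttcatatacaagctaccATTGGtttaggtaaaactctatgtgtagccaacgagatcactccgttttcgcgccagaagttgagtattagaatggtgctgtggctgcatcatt
Hist1h2bp: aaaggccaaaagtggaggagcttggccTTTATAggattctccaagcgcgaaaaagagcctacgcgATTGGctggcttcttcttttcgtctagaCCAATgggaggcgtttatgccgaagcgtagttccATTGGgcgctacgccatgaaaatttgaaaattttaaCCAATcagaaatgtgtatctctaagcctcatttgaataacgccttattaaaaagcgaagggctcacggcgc
Hist2h2bb: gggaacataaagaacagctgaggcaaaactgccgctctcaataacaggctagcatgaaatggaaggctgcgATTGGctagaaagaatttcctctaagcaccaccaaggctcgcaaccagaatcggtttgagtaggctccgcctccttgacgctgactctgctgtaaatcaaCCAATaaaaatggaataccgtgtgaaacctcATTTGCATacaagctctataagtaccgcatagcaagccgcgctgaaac
Hist1h2ba: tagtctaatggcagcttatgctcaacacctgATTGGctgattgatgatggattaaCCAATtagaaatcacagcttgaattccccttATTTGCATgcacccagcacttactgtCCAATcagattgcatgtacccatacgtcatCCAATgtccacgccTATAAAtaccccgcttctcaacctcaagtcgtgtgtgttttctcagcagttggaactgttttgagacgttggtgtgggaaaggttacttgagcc
The windows of Hist1h2af and Hist1h2bp held no octamer, and the windows of Hist1h2af and Hist2h2bb no TATAAA. Each window held at least 2 CCAAT strings.

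Among the 58 members, H2B genes were detected in the largest share of any histone type. Probe sets that name several genes are not counted here. Those of Hist2h2aa1 with Hist2h2aa2 and of Hist1h2ao, Hist1h2ap and Hist1h2ah, all H2A genes, lay above the background level. Those of Hist1h2bq with Hist1h2br and of Hist1h2be with Hist1h1e lay below it. The ranking of types therefore holds for the members alone. 20 of the 58 members lay above the background level by their mean over the 8 arrays: 5 of 15 H2A, 10 of 16 H2B, 1 of 11 H3, 4 of 11 H4 and none of 5 H1 genes. The shares were 62.5% for H2B, 36.4% for H4, 33.3% for H2A and 9.09% for H3. Over all types it was 34.5%, against 29.4% of all probe sets. 11 members exceeded the level on all 8 arrays and 31 on none. Levels of different probe sets are not comparable, so no order of abundance is drawn. Hist1h2bp and Hist2h2ab passed the level through the BPS arrays, their control means lying below it, and Hist1h2bj passed it through the control arrays, so counts over these 20 describe and do not support a difference.

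H2A and H2B genes of the Hist1 cluster often lie head to head around a shared promoter. Among members whose strand was known, 8 such pairs had 163 to 280 bases between the genes. Hist1h2bc had no promoter window and no known strand, so it was in no pair. It starts at chr13:23684199, next to Hist1h2ac, which ends at chr13:23683959 on the minus strand. Of this possible pair, Hist1h2bc alone lay above the background level. In 3 pairs both genes lay above the background level: Hist1h2an with Hist1h2bp, Hist1h2ag with Hist1h2bj, and Hist1h2aa with Hist1h2ba. In 3 pairs the H2B gene alone did (Hist1h2bl, Hist1h2bn and Hist1h2bk), in none the H2A gene alone, and in 2 neither. These counts rest on single-symbol probe sets. A probe set that names Hist1h2ah, the partner of Hist1h2bk, together with Hist1h2ao and Hist1h2ap lay above the level. The octamer was present in 26.3% of the windows of members above the level and 25.0% of those below it, and the shares of TATAAA were 52.6% and 53.1%. Windows of paired genes share the bases between the genes, also where the H2B gene alone lay above the level. The same sequence thus counts on both sides, and no conclusion is drawn from these shares.

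**Figure D1:**
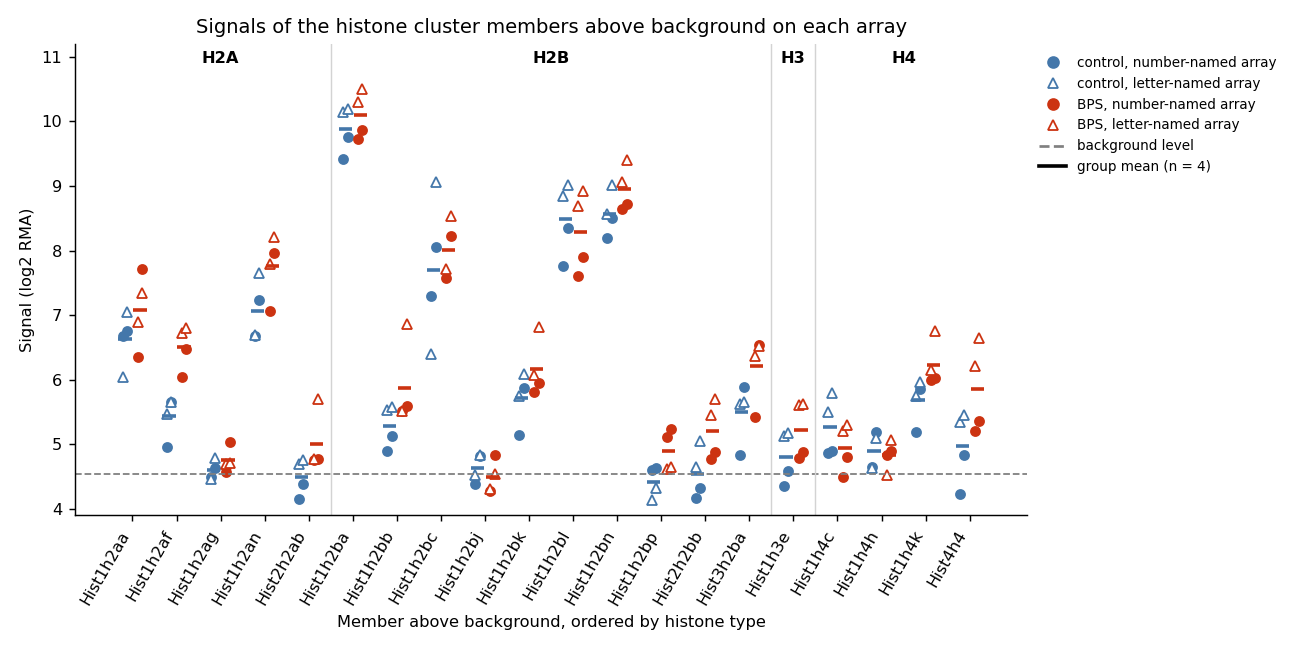
Log2 RMA signal (vertical axis) of the 20 histone members above the background level on each of the 8 arrays, by histone type. Circles are arrays with a number in their name and triangles arrays with a letter, short bars are group means (n = 4), and the dashed line is the background level of 4.54. The BPS arrays of Hist1h2af and Hist1h4k lie above all their control arrays, while the groups of the other members overlap.

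BPS arrays had higher means than control arrays for most detected histone members, but no member passed the adjusted threshold. The median difference, BPS minus control, over the 20 members above the background level was 0.45 log2 units, against 0.12 over all 10138 probe sets above it. 16 of the 20 differences were positive (80.0%, against 70.7% of all probe sets above the level). Over the 38 members below the level the differences ran from -0.30 to 0.24 with a median of 0.01, so the median over all 58 was 0.03, against 0.025 over all probe sets.

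0 of 58 members had a limma adjusted p under 0.05, and 0.0087% of all probe sets did. At an unadjusted limma p under 0.05, 7 members were higher in BPS, 12.1% of the 58 against 7.99% of all probe sets, and 2 were lower, 3.45% against 3.11%. All 7 lay above the background level, 35.0% of the 20 there against 16.4% of all probe sets above it, and none of the 20 was lower, against 3.83%. The count of 9 was 4, 5, 5 and 7 without control replicates 1 to 4 in turn, and 9, 5, 4 and 3 without BPS replicates 1 to 4. The share over all probe sets without 1 array was not taken, so these counts are not read as a result about single arrays. By the p-values of the authors' deposited table, Hist1h2af at 0.0024 and Hist1h2bp at 0.049 were under 0.05, both higher in BPS, where 3.96% of all probe sets were higher and 1.35% lower, and the smallest FDR of any member was 0.864.

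Scaling moved these values in part. Quantile normalization took the median of all probe sets above the background level from 0.12 to 0.00 and that of the 20 members from 0.45 to 0.32, with 16 still positive. Without BPS replicate 4 the members' median was 0.26, and without control replicate 1 it was 0.32. On control replicate 1 the members' median deviation from their own means over the 8 arrays was -0.58, and none of the 20 exceeded its mean. On BPS replicate 4 it was 0.65, and 18 of 20 exceeded their means. The same medians over all probe sets above the level were -0.15 and 0.12. Inha, the granulosa marker, was also lowest on control replicate 1, at 4.50, and highest on BPS replicate 4, at 6.56, with the other arrays between 4.86 and 5.34. Inha was singled out after the values were seen, and Nr5a2, the other detected granulosa marker, had another order, being lowest on BPS replicate 1 at 6.13 and highest on BPS replicate 3 at 6.66. Amh, Fshr and Foxl2 differed by 0.04, 0.06 and -0.005 between groups. The part of Inha in the result was not tested, and in bulk RNA fewer cells of a type and less RNA per cell cannot be told apart.

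**Figure D2:**
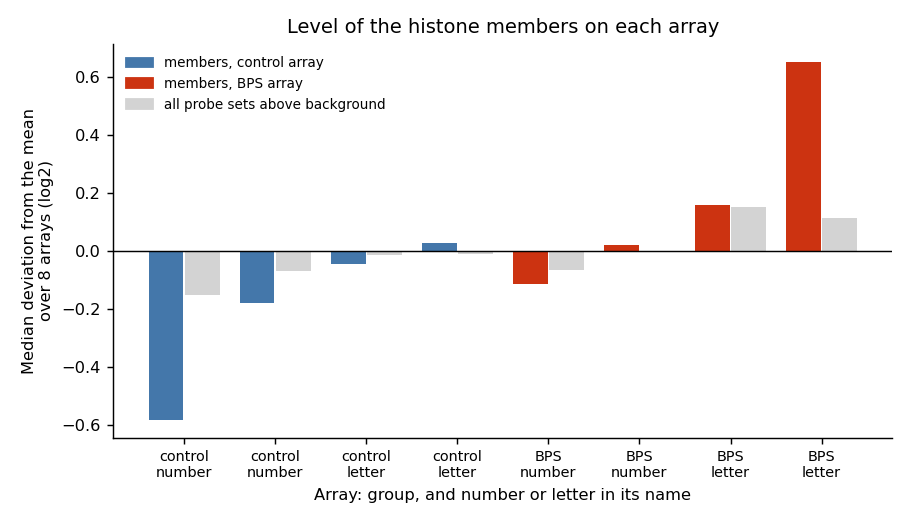
Median deviation (log2, vertical axis) of the 20 histone members above the background level from their own mean over 8 arrays, per array, with grey bars for all 10138 probe sets above that level. The number-named control array at -0.58 and the letter-named BPS array at 0.65 lie farthest out, and the grey bars stay between -0.15 and 0.15.

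The arrays also fell into 2 series by name. In the authors' table the arrays carry either a number or a letter, and each group held 2 of each. No source used here says what the names stand for, so the series is called by them alone. The median difference over the 20 members was 0.37 among number-named and 0.49 among letter-named arrays, against 0.08 and 0.155 over all probe sets above the background level. The same 16 members were positive in both series (80.0%), against 65.5% and 75.3% of all probe sets above the level. With the series as a block, 5 members were higher in BPS at an adjusted limma p under 0.05, as were 2.78% of all probe sets. After quantile normalization with the same block 2 were, against 1.0% of all probe sets. The arrays are also numbered 1 to 4 in each group, and with this number as a replicate block 3 members were higher, against 1.59% of all probe sets. Numbers 1 and 2 fall on number-named arrays and 3 and 4 on letter-named ones. The replicate block therefore lies within the series, and the 2 blocks are not separate support. No member was lower in BPS at that threshold in any of these fits. 2 members passed with both the series and the replicate block, Hist1h2bp and Hist2h2bb, and 6 with at least 1 of them, which adds Hist1h2af, Hist3h2ba, Hist4h4 and Hist1h3e.

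**Figure D3:**
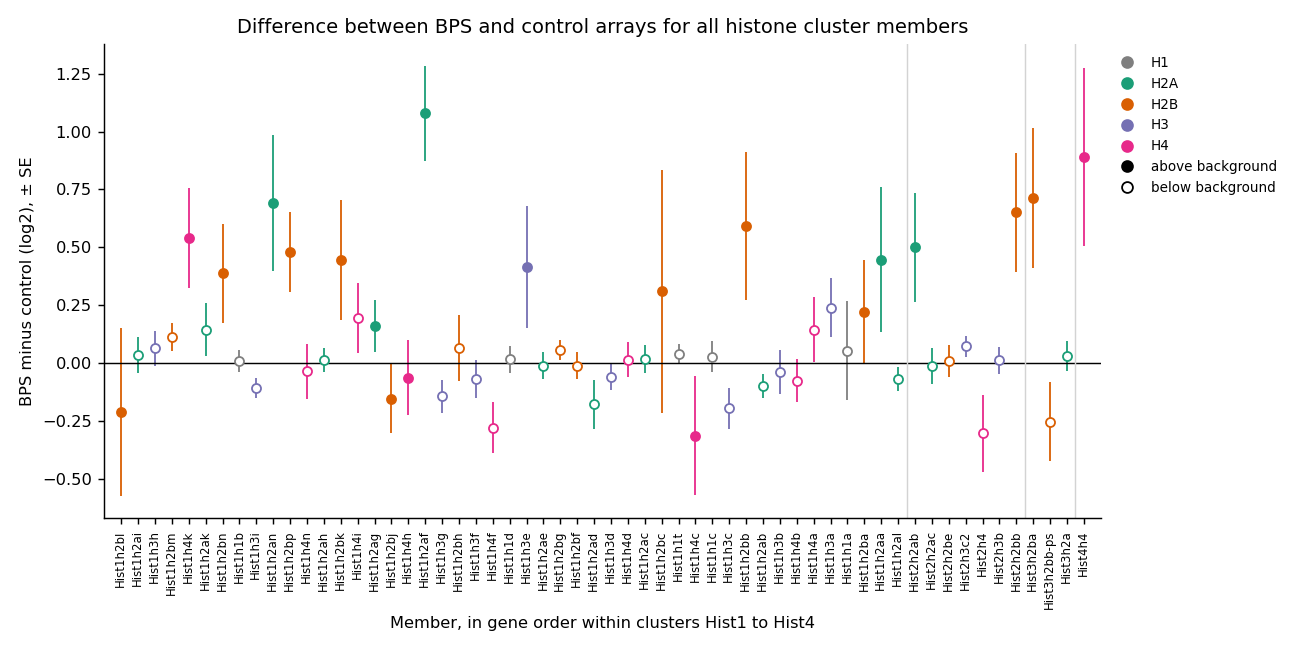
BPS minus control (log2, vertical axis) with its SE for all 58 histone members, in gene order within the 4 clusters, which grey lines separate. Filled points are members above the background level and open points members below it. The filled points run from -0.31 to 1.08 and the open points from -0.30 to 0.24.

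H2A, which pairs with H2B on the nucleosome surface, gave the largest difference of any member. Hist1h2af read 4.96, 5.65, 5.47 and 5.65 on the control arrays and 6.47, 6.05, 6.80 and 6.73 on the BPS arrays. Every BPS array lay above every control array. The means were 5.43 ± 0.33 and 6.51 ± 0.34 (SD, n = 4), 2.11-fold apart (log2 difference 1.08 ± 0.20 (SE); adjusted p = 0.265 by limma). It rose in the fit with the series block (adjusted p = 0.020) and after quantile normalization with that block (adjusted p = 0.036), and its adjusted p with the replicate block was 0.065. The difference was 0.96 among number-named and 1.20 among letter-named arrays, and leaving out 1 array gave 0.92 to 1.23. In the authors' deposited table its signed fold was -2.01, where a negative sign stands for higher in BPS. For some other members the deposited folds were smaller than those computed here. They were -1.07 for Hist1h2bk, -1.18 for Hist1h2bb, -1.19 for Hist2h2ab and -1.16 for Hist1h4k, against 1.36, 1.51, 1.41 and 1.45 here. That of Hist1h2an was larger, -1.89 against 1.62. The cause was not tested, and no median of the deposited folds was taken.

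Hist1h2an, whose promoter is shared with Hist1h2bp, read 6.68, 7.24, 6.69 and 7.65 on control and 7.07, 7.96, 7.79 and 8.21 on BPS arrays. The groups overlapped, since 2 control arrays exceeded the lowest BPS array. The difference was 0.69 ± 0.29 (SE, limma adjusted p = 0.440). The other H2A members above the background level were named after their values were seen. Hist1h2aa codes for TH2A, the variant of testis and oocyte that pairs with TH2B. It read 6.75, 6.67, 7.05 and 6.04 on control and 6.35, 7.72, 6.89 and 7.34 on BPS arrays, at 0.45 ± 0.31 (SE). BPS replicate 1 lay below 3 control arrays. Its difference was 0.25 without control replicate 4, 0.23 without BPS replicate 2, 0.69 without BPS replicate 1 and 0.29 after quantile normalization. Hist2h2ab differed by 0.50 ± 0.24 (SE), and by 0.27 without BPS replicate 4. Hist1h2ag differed by 0.16 ± 0.11 (SE), by 0.065 without BPS replicate 2 and by 0.09 after quantile normalization. The groups of both overlapped. All 5 H2A members above the level were positive, with a median of 0.50. The 10 H2A members below it ran from -0.18 for Hist1h2ad and -0.10 for Hist1h2ab upwards to 0.145, and 5 of them were positive.

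H2B held the most detected members. Hist1h2bp read 4.63, 4.60, 4.14 and 4.32 on control and 5.12, 5.23, 4.61 and 4.65 on BPS arrays. BPS replicate 3, at 4.61, lay just under control replicate 1, so the groups overlapped, and within each series both BPS arrays exceeded both control arrays. The means were 4.42 ± 0.23 and 4.90 ± 0.32 (SD, n = 4), 1.39-fold apart (log2 difference 0.48 ± 0.17 (SE); adjusted p = 0.407 by limma). It rose in all 3 blocked fits, with adjusted p of 0.042 with the replicate block, 0.014 with the series block and 0.023 with that block after quantile normalization. 2 of the 4 control arrays lay below the background level.

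Hist2h2bb read 4.32, 4.17, 4.65 and 5.05 on control and 4.77, 4.88, 5.45 and 5.70 on BPS arrays. Control replicate 4 exceeded BPS replicates 1 and 2, and within each series both BPS arrays exceeded both control arrays. Control replicates 1 and 2 lay below the background level of 4.54, and the control mean of 4.55 lay just above it. The difference was 0.65 ± 0.26 (SE, limma adjusted p = 0.421), and it rose with the replicate block (adjusted p = 0.037) and the series block (adjusted p = 0.023) but had an adjusted p of 0.053 with the series block after quantile normalization. Hist3h2ba, of the Hist3 cluster, is described because of its blocked result, after its values were seen. It read 4.83, 5.89, 5.66 and 5.62 on control and 5.43, 6.54, 6.36 and 6.52 on BPS arrays. BPS replicate 1 lay below 3 control arrays. The difference was 0.71 ± 0.30 (SE, limma adjusted p = 0.441), and it rose with the replicate block alone (adjusted p = 0.036), its adjusted p being 0.249 with the series block.

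The other H2B members above the level, described after their values were seen, passed the adjusted threshold between BPS and control in no fit, blocked or not. Hist1h2ba, which codes for TH2B, read 9.42, 9.76, 10.19 and 10.15 on control and 9.87, 9.73, 10.30 and 10.51 on BPS arrays, a difference of 0.22 ± 0.22 (SE) that was 0.07 without control replicate 1 and 0.09 without BPS replicate 4. The groups overlapped, and in each the letter-named arrays were the higher ones. Hist1h2bn read 8.20, 8.50, 9.02 and 8.57 on control and 8.72, 8.65, 9.06 and 9.41 on BPS arrays, at 0.39 ± 0.21 (SE). Control replicate 3 exceeded 2 BPS arrays, and the difference was 0.24 without BPS replicate 4. Hist1h2bk differed by 0.445 ± 0.26 and Hist1h2bb by 0.59 ± 0.32 (SE), and both were highest on BPS replicate 4, at 6.81 and 6.87. Without that array they differed by 0.23 and 0.26, and Hist1h2bk by 0.26 without control replicate 1 and by 0.27 after quantile normalization. Hist1h2bc had the widest control group of all 20 members, from 6.40 to 9.07 (SD 1.13, n = 4), and its difference of 0.31 became -0.13 without control replicate 4. Hist1h2bl, at -0.21 ± 0.36, and Hist1h2bj, at -0.15 ± 0.15 (SE), were the 2 H2B members above the level with a negative difference. The median of the 10 was 0.42, and 0.23 without BPS replicate 4 and 0.26 without control replicate 1. Of the 6 H2B members below the level, the pseudogene Hist3h2bb-ps was the lowest at -0.25 ± 0.17 (SE), and -0.12 without control replicate 4.

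H3 and H4 are part of the nucleosome core, and 1 of 11 H3 members was detected by its single-symbol probe set. Hist2h3c2, counted as not detected, is also named with Hist2h3c1 by a probe set above the background level, at a mean of 4.98. Hist1h3e, the detected member, is described after its values were seen. It read 4.35, 4.59, 5.13 and 5.17 on control and 4.88, 4.79, 5.62 and 5.61 on BPS arrays. Each BPS pair exceeded the control pair of its own series, and the groups overlapped across series. The difference was 0.415 ± 0.26 (SE, limma adjusted p = 0.559), and it rose in the series block (adjusted p = 0.020), with 0.057 in the replicate block and 0.065 in the series block after quantile normalization. It was 0.26 without control replicate 1.

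Among the 10 H3 members below the level, Hist1h3i and Hist1h3c did not overlap between groups and were lower in BPS. Hist1h3i read 3.88 to 3.96 on control and 3.78 to 3.86 on BPS arrays, a difference of -0.11 ± 0.04 (SE, limma adjusted p = 0.423). Hist1h3c read 4.10 to 4.49 on control and 3.97 to 4.09 on BPS arrays, at -0.195 ± 0.09 (SE, limma adjusted p = 0.460). Both stood below the background level on all 8 arrays, so these are differences in signal without detected expression. The difference of Hist1h3c was -0.105 without control replicate 3. Hist1h3a differed by 0.24 ± 0.13 (SE), and by 0.11 without BPS replicate 1, which read 4.65. Hist2h3c2 differed by 0.07 ± 0.05 (SE).

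Of the H4 members, Hist1h4k read 5.19, 5.86, 5.75 and 5.97 on control and 6.0, 6.03, 6.15 and 6.75 on BPS arrays. All BPS arrays lay above all control arrays, with control replicate 4 close to BPS replicate 1. The difference was 0.54 ± 0.21 (SE, limma adjusted p = 0.423), and 0.37 without control replicate 1 or BPS replicate 4. Hist4h4, which lies alone outside the larger clusters, read 4.23, 4.84, 5.34 and 5.46 on control and 5.36, 5.20, 6.22 and 6.65 on BPS arrays. The 2 letter-named control arrays reached the number-named BPS arrays. The difference was 0.89 ± 0.38 (SE, limma adjusted p = 0.446), and it rose in the series block (adjusted p = 0.030), with 0.061 in the replicate block and 0.066 in the series block after quantile normalization. Its other probe set lay below the background level, at 3.93 ± 0.06 and 3.97 ± 0.04 (SD, n = 4).

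The other H4 members above the level, Hist1h4c and Hist1h4h, are described after their values were seen. Hist1h4c read 4.89, 4.87, 5.50 and 5.79 on control and 4.80, 4.49, 5.21 and 5.30 on BPS arrays. Within each series the BPS arrays were the lower ones, and the groups overlapped across series. Hist1h4c differed by -0.31 ± 0.26 (SE), by -0.14 without control replicate 4 and by -0.16 without BPS replicate 2. Hist1h4h differed by -0.06 ± 0.16 (SE), with a sign that turned without single arrays. The median of the 4 H4 members was 0.24. That median was 0.11 without BPS replicate 4, 0.11 after quantile normalization and 0.115 without control replicate 1. Hist1h4f, below the level, read 3.95, 4.08, 3.88 and 4.41 on control and 3.80, 3.72, 3.84 and 3.85 on BPS arrays, at -0.28 ± 0.11 (SE, limma adjusted p = 0.423). The groups did not overlap, no array reached the background level, and the difference was -0.17 without control replicate 4. Hist2h4 differed by -0.30 ± 0.17 (SE) with overlapping groups, and by -0.19 without BPS replicate 4.

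Linker histone genes of the cluster were not detected by their mean signals. All 5 H1 members had means below the background level, with differences from 0.01 to 0.055. Hist1h1t, the linker histone of testis, stood at 3.81 ± 0.04 on control and 3.85 ± 0.05 on BPS arrays (SD, n = 4). Hist1h1c, a common somatic linker histone, stood at 4.12 ± 0.09 and 4.15 ± 0.10 (SD, n = 4). By contrast H1foo, the linker histone of oocytes and a replacement histone outside the clusters, stood at 9.27 ± 0.47 and 9.50 ± 0.21 (SD, n = 4), and its groups overlapped.

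Counted over all members, the groups did not overlap for 2 members higher in BPS, Hist1h2af and Hist1h4k, where 4.13% of all probe sets did so. They did not overlap for 3 lower members, Hist1h4f, Hist1h3i and Hist1h3c, where 1.68% of all probe sets did so. The shares of the 58 members were 3.45% and 5.17%. The count of 5 became 9 without BPS replicate 1 or without BPS replicate 3. Leaving out an array can only keep or raise this count, and the share over all probe sets was not taken there.

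Several members also differed between the series of array names. Between letter-named and number-named arrays, with the group as a term, 8 members were higher and 1 was lower at an adjusted limma p under 0.05, where 4.56% and 0.949% of all probe sets were. Hist4h4 differed by 1.01, Hist1h2bl by 0.97, Hist1h3e by 0.73, Hist1h4c by 0.69, Hist2h2bb by 0.68 and Hist1h2ba by 0.59 log2 units. Hist1h2bl read 7.76 to 8.35 and 7.61 to 7.90 on the number-named control and BPS arrays and 8.85 to 9.01 and 8.69 to 8.93 on the letter-named ones. No number-named array reached a letter-named one. Hist1h2bp was the exception, lower on letter-named arrays by a difference of -0.47 (adjusted p = 0.011), while Hist1h2an, across the same promoter, differed by 0.35 (adjusted p = 0.510). After quantile normalization 8 members passed in either direction, against 2.84% of all probe sets, and the median over the 20 members went from 0.43 to 0.25. Over all probe sets above the level it was 0.14 as deposited.

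**Figure D4:**
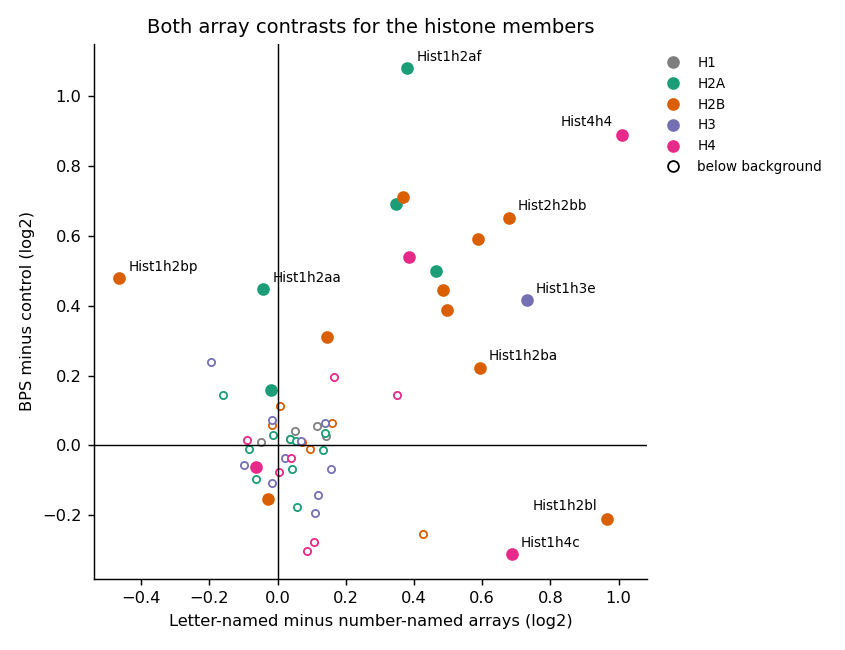
BPS minus control (vertical axis, log2) against letter-named minus number-named arrays (horizontal axis, log2) for the 58 histone members, coloured by histone type, with open points below the background level. Hist1h2af stands highest on the treatment axis at 1.08, Hist4h4 farthest right at 1.01, and Hist1h2bp farthest left at -0.47.

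The probe sets that name several histone genes gave a further view of close paralogs. Those above the background level were that of Hist2h2aa1 and Hist2h2aa2, that of Hist1h2ao, Hist1h2ap and Hist1h2ah, and that of Hist2h3c2 and Hist2h3c1. The Hist2h2aa1 and Hist2h2aa2 probe set stood at 11.14 ± 0.03 on control and 11.13 ± 0.03 on BPS arrays (SD, n = 4), a difference of -0.01 ± 0.04 (SE). The Hist1h2ao, Hist1h2ap and Hist1h2ah probe set stood at 6.49 ± 0.07 and 6.53 ± 0.04 (SD, n = 4). Both SDs were smaller than that of any of the 20 members above the level, where they ran from 0.15 to 1.13 in control and from 0.20 to 0.69 in BPS arrays. The Hist2h3c2 and Hist2h3c1 probe set stood at 4.86 ± 0.13 and 5.10 ± 0.20 (SD, n = 4; limma adjusted p = 0.445).

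Genes that make and handle histone mRNA were detected in most cases. In the fit without a block none passed the adjusted threshold, nor did any gene of the 4 lists below. Of 15 genes of histone mRNA 3′ end processing 12 lay above the background level, 3 were higher and none lower at an unadjusted limma p under 0.05, where 7.99% of all probe sets were higher and 16.4% of those above the level. The median difference was 0.08, and 0.02 after quantile normalization. Slbp, which binds the stem-loop, read 9.53, 9.66, 9.45 and 9.24 on control and 9.47, 9.54, 9.29 and 9.29 on BPS arrays, at -0.07 ± 0.10 (SE). Its groups overlapped throughout. Casp8ap2, a component of the histone cleavage complex, differed by 0.43 ± 0.135 (SE, limma adjusted p = 0.383) and rose with the replicate block (adjusted p = 0.042), with 0.075 in the series block. After quantile normalization its difference was 0.26, with an adjusted p of 0.118 in the series block. Srrt, which links the cap-binding complex to histone mRNA processing, differed by 0.48 ± 0.18 (SE, limma adjusted p = 0.408) and rose with the replicate and the series block (adjusted p = 0.048 and 0.015). With the series block after quantile normalization its difference was 0.30 and its adjusted p 0.104. Cpsf3 and Cstf2 are named because of a blocked result, after their values were seen. Cpsf3 was lower in BPS, at -0.30 ± 0.23 (SE, limma adjusted p = 0.634). It passed only with the series block after quantile normalization (difference -0.43, adjusted p = 0.049). Cstf2 differed by 0.28 ± 0.13 (SE) and rose with the series block (adjusted p = 0.048), with 0.080 in the replicate block. Cstf2 passed the background level through the BPS arrays, with a control mean of 4.48 below it.

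Of 12 genes of histone transcription 9 lay above the level, 1 was higher and none lower at an unadjusted limma p under 0.05, against 7.99% of all probe sets higher. The median difference was 0.13, and 0.04 after quantile normalization. Npat, the coactivator of the histone clusters, read 5.48, 5.84, 5.97 and 6.19 on control and 5.93, 6.20, 6.39 and 6.86 on BPS arrays. Its groups overlapped, at 0.475 ± 0.21 (SE, limma adjusted p = 0.459), and it rose with the replicate block (adjusted p = 0.047), with 0.114 in the series block. After quantile normalization its difference was 0.29, with an adjusted p of 0.274 in the series block. Cdk2, the kinase that activates NPAT together with cyclin E, differed by 0.47 ± 0.15 (SE, limma adjusted p = 0.389).

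Of 17 measured histone chaperones and carriers 15 lay above the level, with a median difference of 0.04 that was -0.03 after quantile normalization. At an unadjusted limma p under 0.05, 1 gene was higher, against 7.99% of all probe sets. That gene was Ipo4, an importin of H3 and H4, at 0.335 ± 0.11 (SE, limma adjusted p = 0.389), which rose with the replicate block (adjusted p = 0.045), with 0.061 in the series block and 0.219 in that block after quantile normalization. Nasp, a chaperone of H1 and H3, differed by -0.11 ± 0.05 (SE). Of 12 measured replacement histones, which are made outside S phase from genes with ordinary mRNAs, 7 lay above the level. 1 was higher and 1 lower at an unadjusted limma p under 0.05, against 7.99% and 3.11% of all probe sets. The median difference of the 12 was 0.15, and 0.03 after quantile normalization. H1fx, a replacement linker histone, differed by 0.57 ± 0.21 (SE, limma adjusted p = 0.411) and rose with the series block (adjusted p = 0.046). H1fx passed the background level through the BPS arrays, with a control mean of 4.49 below it. Its adjusted p was 0.084 with the replicate block and 0.080 with the series block after quantile normalization. H2afy2, which codes for macroH2A2 and lay below the level, differed by -0.29 ± 0.11 (SE). All 11 S phase and proliferation markers lay above the level, with a median difference of 0.12 that was -0.02 after quantile normalization.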

How the data were processed

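RNA of 8 mouse oocyte samples was measured on 8 arrays. Per the file headers, the authors deposited log2 RMA signals at gene level, with 2 decimals, with annotation from NetAffx release 36 (mm10). The Transcriptome Analysis Console is named in the submitters' processing notes. No source used here states a further scaling. The authors' deposited table also holds p-values and signed fold and standard deviation scores, and 4 of its p-values have a decimal comma. Standard deviations and differences in the text were computed here from the signals.

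All 34472 probe sets were fitted in R 4.3.3 with limma 3.58.1 (lmFit, then eBayes), BPS minus control, two-sided, with no covariate and Benjamini-Hochberg adjustment over all of them, at a threshold of 0.05. The fit was tested on simulated data. Array medians lay between 4.15 and 4.21 log2 units and array correlations between 0.941 and 0.982. The number of arrays limits the precision. The background level came from 1570 probe sets. Symbols matched the GRCm38.p6 gene table for all 58 members, 47 by accession and 11 by synonym. Python 3.11.15 with pandas 2.3.3 was used for the tables, and matplotlib 3.10.9 for the plots.

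The text names, for each histone type, up to 2 members per direction with the smallest unadjusted p, Hist1h2af and Hist1h2bp in any case, and in the related lists the 2 genes with the smallest p plus Slbp, Npat and H1foo. Members named beyond this rule are said to be. The members and lists were chosen with earlier results of these data known.

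As deviations from the group mean, arrays with the same number correlated at 0.519, 0.383, 0.173 and 0.362. All were over 0.1, and by this rule the numbers in the titles were treated as pairing the samples in the replicate block. Arrays with another number but the same kind of name correlated as well, at 0.305 to 0.493. The correlations thus do not single out the number as a pair, and the labels do not say what a number shares.

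Alternatives were quantile normalization, median centring, filters on dim probe sets, an eBayes trend, both blocks, the authors' p-values, an exact permutation test, the mean of both Hist4h4 probe sets, and leaving out each array.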

Additional observations from a re-analysis of the deposited data

Results flagged for a closer look

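In 62 groups of 4 arrays (31 named members, 2 groups each), 3 groups held an array far from the other 3, where chance gives about 3.1. Hist1h2bb read 6.87 on BPS replicate 4 and 5.51 to 5.59 on the other BPS arrays. Hist2h2ab read 5.70 on BPS replicate 4 and 4.75 to 4.78 on the others. Hist3h2ba read 5.43 on BPS replicate 1 and 6.36 to 6.54 on the others.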

How the results depend on the processing

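No member passed the adjusted threshold as deposited, after quantile normalization, median centring, either filter or an eBayes trend, by the authors' FDR, or without any 1 array. 3 passed with the replicate block, 5 with the array-series block and 2 with that block after quantile normalization. The replicate block changed no other call among the named members. The 9 members at an unadjusted p under 0.05 became 20 with the replicate block, 16 with the array-series block, 16 with that block after quantile normalization, 2 by the authors' p-values and 5 by the exact permutation test, and 3 to 9 without 1 array. The 5 of the exact permutation test, each at its p of 0.029, are the same 5 members whose groups do not overlap. That count is therefore not separate support. Shares over all probe sets at an unadjusted p were not taken for the blocked, permutation and leave-out settings. Those counts are therefore not read as a result about histone genes. The 5 members whose groups do not overlap became 2 among probe sets above background and 2 among those above the median level, by fewer members being counted, and 5 to 9 without 1 array. Leaving out an array can only keep or raise the count of members whose groups do not overlap. For the remaining changes the cause was not tested. The median of 0.45 over members above background ran from 0.26 to 0.55 without 1 array. 9 members differed between the array series, and 8 after quantile normalization. Without 1 array the difference turned sign for Hist1h1c (-0.013 to 0.061, and -0.0092 without control replicate 1), Hist1h2bc (-0.13 to 0.77), Hist1h2bl (-0.45 to 0.014) and Hist1h4h (-0.15 to 0.0375), none of them past a threshold. The other 27 members named kept their direction in every setting run. No member shared all 8 values with another probe set, so leaving such members out changed nothing. Signals under the background level limit all 5 H1, 10 of 15 H2A, 6 of 16 H2B, 10 of 11 H3 and 7 of 11 H4 members.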
